A study of Homo sapiens with 3 samples.

Results

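The 91 genes described here encode the proteins that store neurotransmitter in vesicles and fuse those vesicles with a membrane, together with their relatives outside neurons. They were chosen by gene name alone: the synaptotagmins and synaptotagmin-like proteins, synapsins, synaptophysin and its relatives, SV2 proteins, VAMPs, syntaxins, syntaxin-binding proteins, SNAP proteins, complexins, RAB3 GTPases, RIMS, UNC13, BSN, PCLO and the synucleins. All 91 were measured, among 27307 genes in all. RNA-seq was done on 3 teratomas, tumours of mixed tissues that pluripotent cells form in a host, grown from the human embryonic stem cell line H1. In this assay 1000000 cells were placed under the skin of immunodeficient SCID-beige mice and the growth was taken after 3 to 4 weeks. The 3 libraries form 1 group with no genetic change, no drug and no comparison group, and they are called teratomas 1, 2 and 3 by their replicate number. Separate animals are not stated in the labels, and a single line was used, so the spread between libraries may be technical.

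Release of transmitter depends on SNARE proteins, which zip together from vesicle and target membrane and draw the membranes into fusion. At the synapse the vesicle SNARE is a VAMP, the plasma membrane SNAREs are a syntaxin and SNAP25, a syntaxin-binding protein chaperones the complex, UNC13 and RIMS proteins prime the vesicle, complexin clamps it, and a synaptotagmin triggers fusion when calcium enters. Most of these families also have members that serve Golgi, endosome, granule or epithelial traffic in other cells, so a tissue mixture such as a teratoma can hold both kinds at once.

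Levels are given in RPKM, that is, reads scaled to the kilobase of transcript and to 1000000 library reads, so levels of different genes are compared per length. A gene is called detected at 1 RPKM or more in all 3 libraries. Of the 91 genes 69 (75.8%) were detected, against 52.7% of all genes, and the median of the means over the 3 libraries was 7.31 RPKM for the 91 and 2.05 for all genes. At 5 RPKM in all 3 libraries the count was 39 (42.9%), against 31.2% of all genes. Of the 22 genes not detected, 13 reached 1 RPKM in 1 or 2 libraries and 9 in none: CPLX3, CPLX4, STX11, STX19, SYT10, SYTL4, SYNGR4, SYPL2 and UNC13C. The library totals behind the RPKM values, in units of 1000000 reads, were 46.2, 45.8 and 43.6, and 99381, 122842 and 233596 reads fell on the 91 genes in teratomas 1, 2 and 3.

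The 91 genes differed more between libraries than most genes, and teratoma 3 stood apart. The spread of a gene is its highest minus its lowest library on log2(RPKM + 1), a scale that understates the differences of low genes, and it counts as large at 1 or more. A large spread was found for 46 of the 91 genes (50.5%), against 12.1% of all genes. All 46 had a mean of at least 1 RPKM, and 20.0% of the genes with such a mean had a large spread. A large spread with teratoma 3 as the highest library was found for 38 of the 91 (41.8%), against 4.52% of all genes, and one with teratoma 3 as the lowest for 8 of the 91 (8.79%), against 7.07%. The 81 of the 91 that reached that mean were highest in teratoma 3 in 57 cases (70.4%), against 39.9% of all genes that reached it. Teratoma 1 was highest in 14, against 39.8%, and teratoma 2 in 10, against 20.3%. Teratoma 1 was lowest in 50 (61.7%), against 31.1%, teratoma 2 in 10, against 20.8%, and teratoma 3 in 21 (25.9%), against 48.1%. In 48 (59.3%) teratoma 3 was highest and teratoma 1 lowest, against 26.5%. A spread of 2 or more was found for 13 genes (14.3%), against 1.52% of all genes. Between teratomas 1 and 2 alone the large spread was limited to SNCB, 1 of the 91 genes, where 1.59% of all genes had it, so the count of 46 rests on teratoma 3. These are counts over 1 group of 3 libraries, without a test. Counts by role below stand beside the same shares of all genes, 52.7% detected and 12.1% with a large spread.

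**Figure D1:**
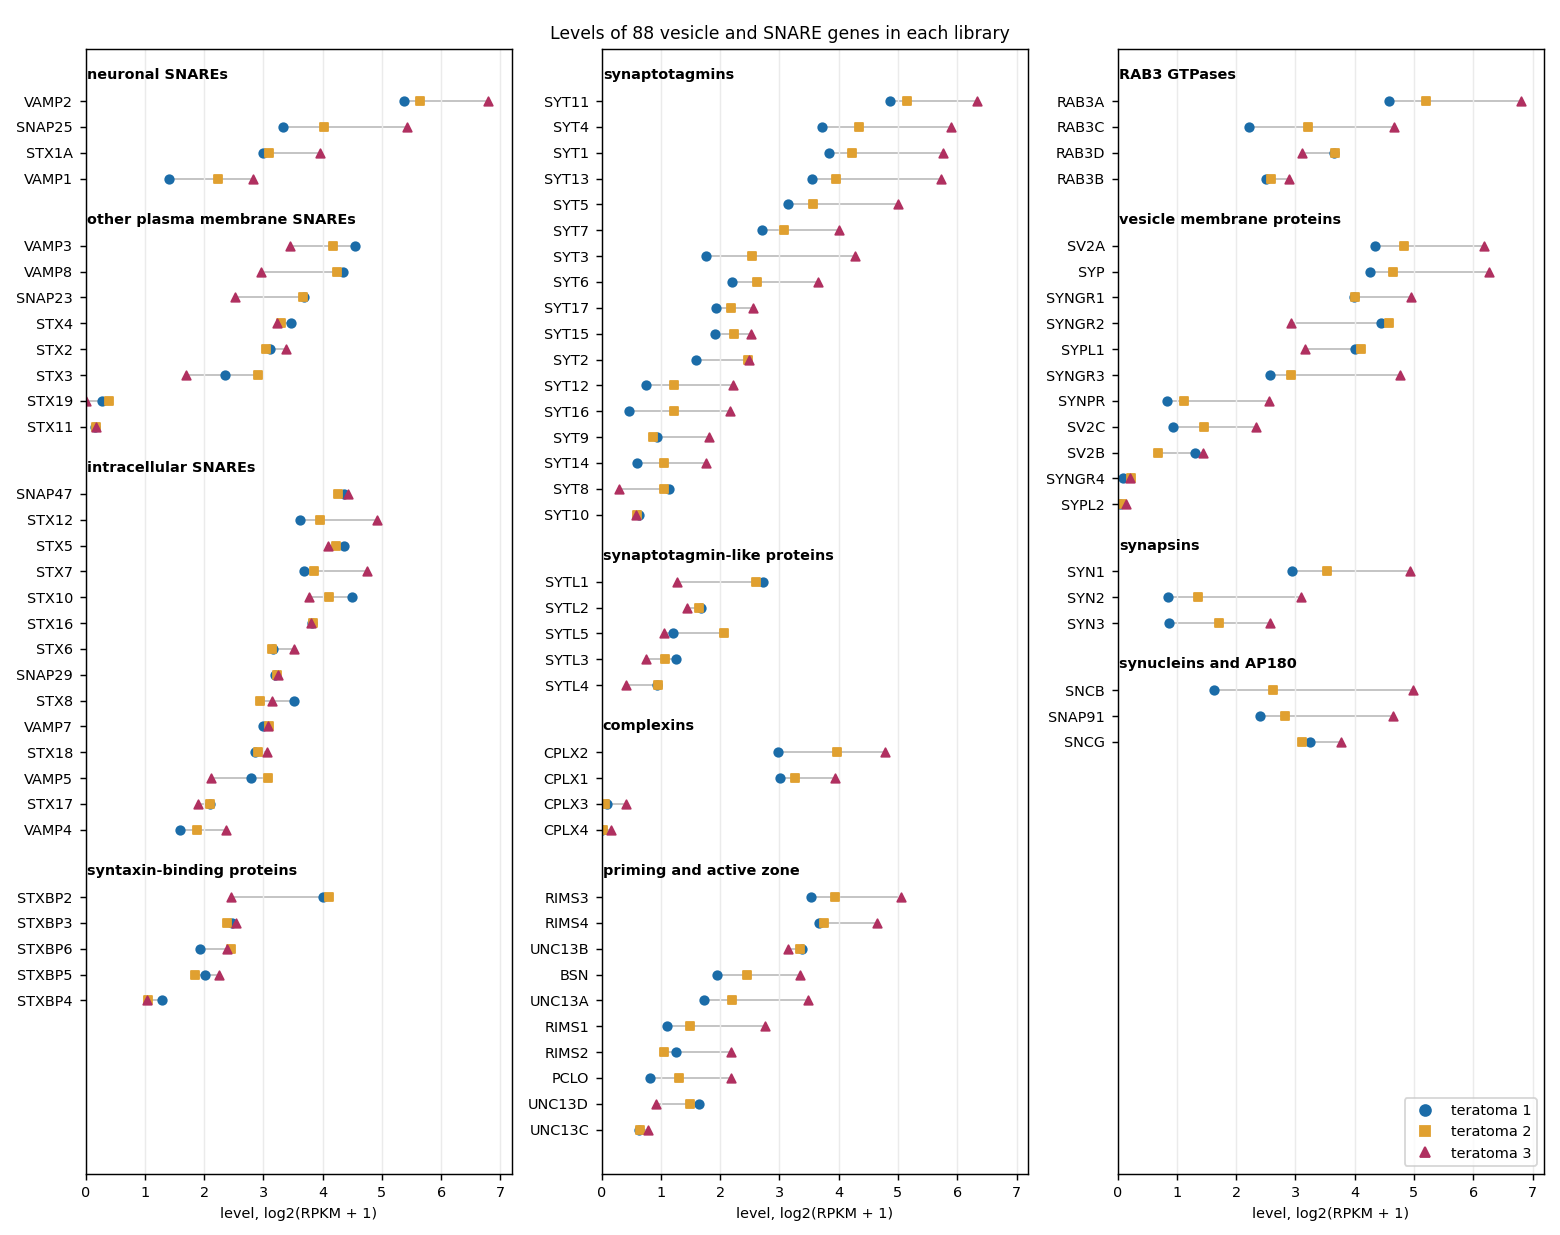
Level of 88 of the 91 genes on log2(RPKM + 1), ordered within its role by mean, with teratoma 1 as a circle, teratoma 2 as a square and teratoma 3 as a triangle. The triangle lies to the right in the neuronal SNAREs, the synapsins and most synaptotagmins, and to the left in VAMP3, VAMP8, SNAP23, STXBP2 and SYNGR2.

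Marker genes of several cell types moved as well. The 12 neuron markers, among them TUBB3, MAP2 and STMN2, were all detected and all highest in teratoma 3, with a summed level of 895, 1153 and 3081 RPKM in teratomas 1, 2 and 3. All 5 epithelium markers, among them EPCAM and KRT8, and all 6 mesenchyme markers, among them COL1A1 and LUM, were lowest in teratoma 3, with sums of 669, 697 and 166 RPKM for epithelium and 1296, 1046 and 294 for mesenchyme. Of the 7 endocrine markers, whose cells also release vesicles, 5 were highest in teratoma 1, and the sums were 454, 147 and 164. The 5 liver and yolk sac markers summed to 915, 3381 and 299, the 7 glia markers to 58.1, 38.6 and 36.9, the 6 neural progenitor markers to 274, 281 and 423, the 4 muscle markers to 14.4, 17.0 and 17.6 and the 4 leukocyte markers to 32.6, 28.4 and 13.1 RPKM. Of the 6 neural progenitor markers 2 had a large spread, among them FABP7 at 34.3, 48.8 and 134.2 RPKM. The glia markers were mixed, with 3 highest and 4 lowest in teratoma 3. No marker of these lists was at 0 in any library, but 2 of the 4 leukocyte markers and 1 of the 7 glia markers were under 1 RPKM in all 3. In bulk tissue, fewer cells of a type and less RNA per cell cannot be told apart, and the part that the make-up of the tumours, or reads from mouse tissue, had in the values below was not tested.

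RefSeq promoter windows (GRCh38.p14, 250 bases before to 50 after a start site) were at hand for 72 of the 91 genes, as 111 windows. The expression tables are on hg19, so the windows were matched by gene name. Factor NRSF, also called REST, keeps neuronal genes silent outside neurons and binds a long element with a left arm, TTCAGCACC, and a right arm, GGACAG, any base and GCC. The whole element, with 2 bases of any kind between the arms, was found on either strand in 3 of 35116 windows (0.00854%), and SYN1 was the single gene of the 72 with it. Windows with the left arm numbered 2 (SYN1 and UNC13A), 1.80% of the 111 against 0.376% of all, and those with the right arm 3 (the same and STXBP2), 2.70% against 0.846%. In UNC13A the arms lie 8 bases apart in place of the 2 of the SYN1 element. The cyclic AMP element TGACGTCA was in 3 windows (SYN1, STX12 and STXBP3), 2.70% against 1.85% of all. GGGCGG, the SP1 box, was in 70 of the 111 (63.1%) against 45.0%, in windows whose median GC content was 66.3% against 58.7%. TATAAA was in 4 (3.60%) against 11.5%, and the palindromic NRF1 element in 1 (0.901%, BSN) against 1.24%. Windows of 1 gene can overlap, motifs of both strands were counted and the arms lie within the whole element. A match describes letters and shows no binding, and whether a motif went with the level of a gene was not tested. The stretches below are printed for the genes with both NRSF arms, for SYP, synaptophysin, one of the genes with a spread of 2 or more, and for SYNGR2 and SNAP23, whose levels ran the other way. Capitals mark any of these motifs. SYNGR2 has 2 windows, of which the first is printed, and all stretches but that of UNC13A are the 250 bases before the start site. A label of none of the motifs covers the printed stretch only. An SP1 box was in a window of 55 of the 72 genes.
SYN1 (chrX:47619858-47620107, minus strand, with the NRSF element first and the cyclic AMP element after it): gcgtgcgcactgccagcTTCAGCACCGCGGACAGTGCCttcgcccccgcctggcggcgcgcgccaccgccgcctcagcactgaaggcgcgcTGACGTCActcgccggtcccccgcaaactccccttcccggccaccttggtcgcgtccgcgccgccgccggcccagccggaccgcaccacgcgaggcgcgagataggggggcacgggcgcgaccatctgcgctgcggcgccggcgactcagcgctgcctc
UNC13A (chr19:17688335-17688379, minus strand, both arms around the start site, read on the opposite strand): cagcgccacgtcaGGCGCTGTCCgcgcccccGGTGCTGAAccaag
SYP (chrX:49200194-49200443, minus strand, 4 SP1 boxes): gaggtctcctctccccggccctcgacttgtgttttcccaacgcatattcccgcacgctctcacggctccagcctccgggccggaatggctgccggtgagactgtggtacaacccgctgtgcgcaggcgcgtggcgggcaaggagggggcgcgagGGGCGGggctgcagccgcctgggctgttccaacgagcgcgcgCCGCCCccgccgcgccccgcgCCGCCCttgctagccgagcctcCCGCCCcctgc
SYNGR2 (chr17:78168295-78168544, plus strand, none of the motifs): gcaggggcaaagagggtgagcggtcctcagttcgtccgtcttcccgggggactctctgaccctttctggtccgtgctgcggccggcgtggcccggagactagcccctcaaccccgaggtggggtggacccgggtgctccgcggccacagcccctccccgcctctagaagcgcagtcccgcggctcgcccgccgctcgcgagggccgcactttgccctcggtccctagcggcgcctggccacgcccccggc
SNAP23 (chr15:42495384-42495633, plus strand, none of the motifs): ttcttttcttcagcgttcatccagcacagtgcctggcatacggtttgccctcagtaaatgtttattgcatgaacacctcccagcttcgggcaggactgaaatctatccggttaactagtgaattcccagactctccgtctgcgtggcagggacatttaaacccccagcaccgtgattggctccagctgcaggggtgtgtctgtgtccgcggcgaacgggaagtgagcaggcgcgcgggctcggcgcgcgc

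The neuronal SNAREs were all detected and all highest in teratoma 3 and lowest in teratoma 1, and 4 of the 5 had a large spread. VAMP2, the main vesicle SNARE of synapses and also present in other secretory cells, stood at 40.5, 49.0 and 110.1 RPKM in teratomas 1, 2 and 3 (66.6 ± 38.0, SD, n = 3), the highest mean of the 91. SNAP25, which supplies the pair of central helices of the complex, stood at 9.04, 15.3 and 42.0 RPKM. The syntaxin STX1A, their partner on the plasma membrane, stood at 6.95, 7.54 and 14.5 RPKM, with a spread of 0.96, just under 1. VAMP1, the VAMP of spinal cord and motor nerve endings, stood at 1.67, 3.68 and 6.10 RPKM and was far below VAMP2 in each library.

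SNAREs that other cells use at the plasma membrane ran the opposite way or stayed level. VAMP8, a SNARE of exocrine granules and endosomes, stood at 19.3, 17.97 and 6.80 RPKM. SNAP23, the broadly expressed counterpart of SNAP25, stood at 11.9, 11.7 and 4.71. VAMP3, or cellubrevin, of recycling endosomes, stood at 22.2, 17.0 and 9.90 RPKM. STX3, a syntaxin of apical epithelial membranes and photoreceptors, stood at 4.10, 6.53 and 2.24. In all 4 genes teratoma 3 was the lowest library and the spread was 1 or more. A lowest level in teratoma 3 was common in the series, so the direction alone is not particular to these SNAREs. It was found for 48.1% of genes averaging 1 RPKM or more, and for 5 of the 6 such SNAREs of this group. Together with a large spread it was found for 7.07% of the 27307 genes and 4 of the 8 SNAREs. These shares were not tested. STX4, of basolateral traffic, stood at 10.1, 8.83 and 8.41 RPKM, and STX2 at 7.66, 7.24 and 9.43. STX11, known from immune cells, had a mean of 0.123 RPKM, and STX19 had 11, 17 and 0 reads, where 3 reads in teratoma 3 would make 0.0595 RPKM.

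The intracellular SNAREs of Golgi, endosome and lysosome were the steadiest group. All 14 were detected, with means from 2.96 to 19.3 RPKM, and the median spread was 0.32. SNAP47 led the group at 19.5, 18.1 and 20.4 RPKM, though its 11 transcript entries differed 2.48-fold in mean RPKM. The Golgi syntaxin STX5 stood at 19.6, 17.8 and 16.1. STX16, of the trans-Golgi network, had the smallest spread of the group, 0.04, at 13.1, 13.3 and 13.0 RPKM. The large spreads of the group were those of 2 endosomal syntaxins: STX12 stood at 11.2, 14.6 and 29.4 RPKM and STX7 at 11.8, 13.4 and 25.8, both highest in teratoma 3. STX10, of the trans-Golgi network, was lowest in teratoma 3 at 21.7, 16.2 and 12.6 RPKM. VAMP5, known from muscle and vessel walls, was also lowest there, at 5.92, 7.48 and 3.35. VAMP7 is listed with 2 genome placements, so its reads could not be assigned to 1 of them.

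All 6 syntaxin-binding proteins were detected and 2 had a large spread. STXBP2, of epithelia and immune granules, was lowest in teratoma 3 at 15.1, 16.2 and 4.45 RPKM. STXBP3, a broadly expressed form, was nearly level at 4.51, 4.23 and 4.80. The other binding proteins STXBP4, STXBP5 and STXBP6, with means of 1.19, 3.14 and 3.84 RPKM, had spreads from 0.26 to 0.52.

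**Figure D2:**
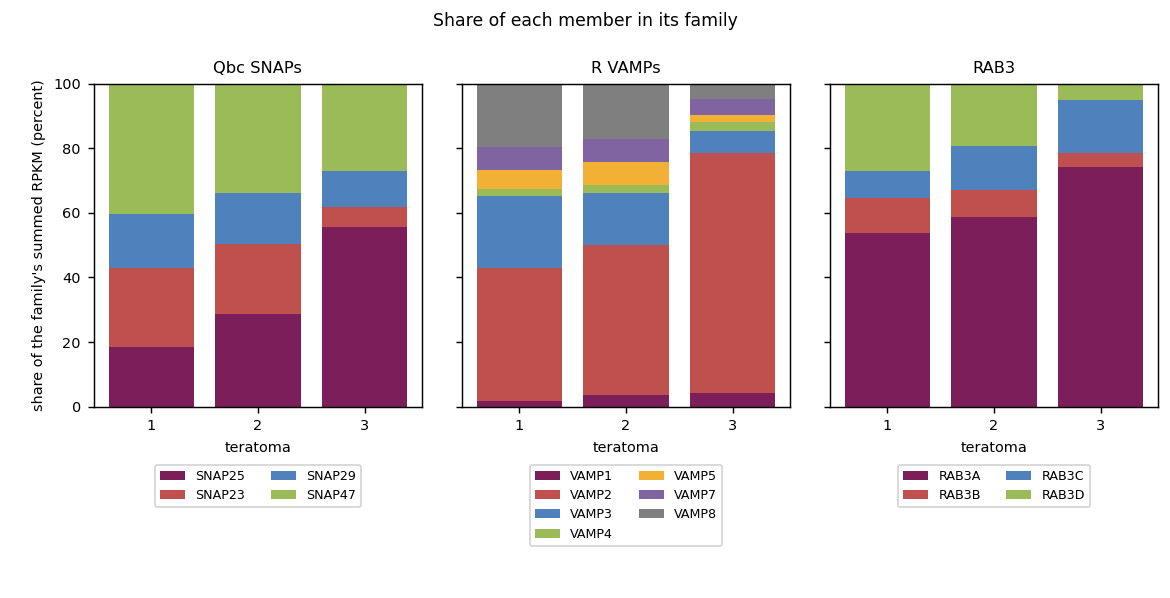
Share of each gene in the summed RPKM of its family, in percent, in teratomas 1, 2 and 3, for the SNAP proteins, the VAMPs and RAB3A to RAB3D. SNAP25, VAMP2 and RAB3A take their largest share in teratoma 3 (55.5%, 74.5% and 74.3%), where SNAP23, VAMP8 and RAB3D take their smallest.

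Family shares of the SNAREs are parts of a sum, so the shares of other genes fall where a leading gene rises. SNAP25 took 18.6%, 28.6% and 55.5% of the summed RPKM of the SNAP genes in teratomas 1, 2 and 3, and SNAP23 took 24.5%, 21.8% and 6.22%. SNAP47 and SNAP29, whose levels were nearly flat, fell in share too, from 40.2% and 16.7% in teratoma 1 to 27.0% and 11.2% in teratoma 3. VAMP2 took 41.1%, 46.5% and 74.5% of the VAMPs, and VAMP8 19.5%, 17.0% and 4.596%. VAMP4, an intracellular form, rose in share with VAMP2, at 2.03%, 2.55% and 2.83%.

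Synaptotagmins, calcium sensors and their relatives, made up the largest family. Of the 17 genes 11 were detected, where 52.7% of all genes were, and 11 had a large spread, where 12.1% of all genes did. All 15 with a mean of at least 1 RPKM were highest in teratoma 3, against 39.9% of all genes with such a mean. The leading gene was SYT11, a form that does not bind calcium, at 28.2, 34.8 and 79.3 RPKM (47.4 ± 27.8, SD, n = 3). SYT4, known from dense-core vesicles, stood at 12.2, 19.3 and 58.6. SYT1, the fast calcium sensor of forebrain synapses, stood at 13.2, 17.7 and 53.4 RPKM. The sensor was thus less abundant in all 3 libraries than SYT11. SYT13 stood at 10.6, 14.4 and 51.8 RPKM, close to SYT1. SYT5, of synaptic and dense-core vesicles, stood at 7.84, 10.8 and 31.1, and SYT3, a plasma membrane form, at 2.38, 4.81 and 18.3, with the largest spread of the family (2.51).

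The other synaptotagmins lay below these 6 genes in teratoma 3. SYT7, the sensor of slow and asynchronous release, stood at 5.49, 7.44 and 15.1 RPKM. SYT2, the fast sensor of hindbrain, spinal cord and motor endings, stood at 2.01, 4.54 and 4.59, so teratomas 2 and 3 were nearly equal in it. SYT6, a relative of SYT3, stood at 3.61, 5.16 and 11.5. SYT9, SYT12, SYT14 and SYT16 had means from 1.32 to 1.87 RPKM and stayed under 1 RPKM in at least 1 library. SYT15 and SYT17 had means of 3.73 and 3.75, and the 2 entries of SYT15 differed 2.79-fold. SYT8, with 1.21, 1.08 and 0.221 RPKM, was lowest in teratoma 3, and SYT10 was under 1 RPKM in each library (0.522 ± 0.0222, SD, n = 3).

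The synaptotagmin-like proteins, which tether granules through RAB27 in epithelial, blood and pigment cells, were low and none was highest in teratoma 3. SYTL1 stood at 5.58, 5.10 and 1.41 RPKM. SYTL5 stood at 1.30, 3.16 and 1.07, highest in teratoma 2. For SYTL2 the values were 2.19, 2.11 and 1.72. SYTL3 and SYTL4, with means of 1.05 and 0.730 RPKM, were also lowest in teratoma 3.

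Complexins and priming factors of the neuron were mostly highest in teratoma 3. CPLX2 stood at 6.91, 14.7 and 26.5 RPKM and CPLX1 at 7.01, 8.64 and 14.3, so the complexins were close in teratoma 1 and CPLX2 led in the others. CPLX3 and CPLX4, the complexins of retina, were near 0, with 6, 4 and 29 reads for CPLX3 and 0, 1 and 10 for CPLX4. UNC13A, the main priming factor of excitatory synapses, stood at 2.31, 3.59 and 10.2 RPKM. UNC13B, a form shared with other tissues, stood at 9.39, 9.16 and 7.85 and was the higher of the pair in teratomas 1 and 2. UNC13D, of granules in immune cells, stood at 2.12, 1.80 and 0.877 RPKM.

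The RIMS genes were led by the short forms. RIMS3 stood at 10.6, 14.3 and 32.1 RPKM and RIMS4 at 11.8, 12.5 and 23.99, each far above the long forms. RIMS1 stood at 1.15, 1.80 and 5.74 RPKM. RIMS2 (1.38, 1.09 and 3.56) was likewise highest in teratoma 3 and has 32 transcript entries. The active zone scaffolds BSN and PCLO stood at 2.86, 4.49 and 9.17 RPKM and at 0.769, 1.47 and 3.52, with BSN the higher in each library.

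RAB3 GTPases sit on secretory vesicles, and the synaptic form led. RAB3A stood at 22.98, 35.7 and 111.3 RPKM (56.7 ± 47.8, SD, n = 3), and its level in teratoma 3 was the highest of the 91 genes in that library. RAB3C, also neuronal, stood at 3.64, 8.26 and 24.4. RAB3D, of exocrine granules, stood at 11.5, 11.7 and 7.59 RPKM and was lowest in teratoma 3. RAB3B, of pituitary and epithelial cells, stood at 4.69, 5.01 and 6.44. RAB3A took 53.7%, 58.8% and 74.3% of the summed RPKM of the family, and RAB3D 26.9%, 19.3% and 5.07%.

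Proteins of the vesicle membrane split between neuronal and broadly expressed forms. SV2A, present on nearly all synaptic vesicles, stood at 19.4, 27.4 and 71.8 RPKM (39.5 ± 28.2, SD, n = 3). SYP, synaptophysin, which pathologists use as a neuroendocrine marker, stood at 18.03, 24.1 and 75.8. SYNGR3, a neuronal synaptogyrin, stood at 4.96, 6.60 and 26.3 RPKM. SYNGR2, or cellugyrin, the form of cells outside the nervous system, ran the opposite way at 20.7, 22.9 and 6.61. SYPL1, the broadly expressed relative of synaptophysin, stood at 15.0, 16.2 and 7.99 RPKM. SYNGR1 stood at 14.9, 15.1 and 29.9, though its 3 transcript entries differed 1.67-fold in mean RPKM. The other SV2 forms were scarce, with SV2B at 1.46, 0.6005 and 1.70 RPKM, lowest in teratoma 2, and SV2C at 0.902, 1.76 and 4.07. SYNPR, synaptoporin, stood at 0.780, 1.17 and 4.88, and SYNGR4 and SYPL2 had means of 0.131 and 0.0592 RPKM.

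Synapsins tether vesicles into the reserve pool, and all 3 had a large spread. SYN1 stood at 6.72, 10.5 and 29.4 RPKM. SYN2 stood at 0.811, 1.55 and 7.52, which is 9.27-fold higher in teratoma 3 than in teratoma 1. Its 2 transcript entries differed 1.97-fold in mean RPKM. SYN3 stood at 0.818, 2.26 and 4.91. Both SYN2 and SYN3 were under 1 RPKM in teratoma 1 and so do not count as detected. SYN1 was the most abundant synapsin in each library.

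Of the synucleins, presynaptic proteins that bind vesicle lipid, SNCB had the widest spread of all 91 genes, while that of SNCG was 0.67. SNCB, beta-synuclein, stood at 2.07, 5.15 and 30.6 RPKM, a spread of 3.36, and was 14.8-fold higher in teratoma 3 than in teratoma 1. SNCG, of sensory and motor neurons and also fat, stood at 8.46, 7.58 and 12.7 RPKM and was above SNCB in teratomas 1 and 2 and below it in teratoma 3. SNAP91, or AP180, which builds the clathrin coat that retrieves vesicles, stood at 4.29, 6.05 and 24.1.

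Within a library, the neuronal form was compared with a broad or alternative form in 18 pairs, as the log2 ratio of RPKM + 0.1. The pairs were set with earlier results of these data known, and some genes, such as VAMP2, are in several of them. No background of other pairs was computed, so the counts describe these 18 pairs only. The first gene of the pair was higher in all 3 libraries in 12 pairs, the second in 0, and the order differed between libraries in 6. The log2 ratio was highest in teratoma 3 in 14 pairs and lowest there in 3. VAMP2 over VAMP8 gave 1.07, 1.44 and 3.998, and SYP over SYPL1 gave 0.26, 0.57 and 3.23. SNAP25 over SNAP23 gave -0.39, 0.39 and 3.13, so these genes were close in teratomas 1 and 2 and SNAP25 led in teratoma 3. SYNGR3 over SYNGR2 turned furthest, from -2.04 and -1.78 to 1.97. The mean log2 ratio SNAP25/SNAP23 was 1.04 ± 1.85 (SD, n = 3) and -0.0011 without teratoma 3.

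Pairs of genes that are both neuronal differed in their range over the libraries, from 0.41 for BSN over PCLO to 1.68 for SV2A over SV2B. SV2A over SV2B gave 3.64, 5.29 and 5.32, and SYT1 over SYT2 gave 2.66, 1.94 and 3.51, a range of 1.58. BSN over PCLO gave 1.77, 1.55 and 1.36 and SYT1 over SYT7 gave 1.25, 1.24 and 1.82. VAMP2 over VAMP1 gave 4.52, 3.70 and 4.15, with a mean of 4.12 ± 0.41 (SD, n = 3). SYN1 over SYN2 gave 2.90, 2.69 and 1.95, and CPLX1 over CPLX2 gave 0.02, -0.76 and -0.89. When the signs of the 3 libraries' ratios were flipped in all ways (an exact permutation test, two-sided), each of the 12 pairs with 1 order throughout had p = 0.25, the smallest that 3 libraries allow, and 0.375 after Benjamini-Hochberg adjustment over the 18 pairs, so no pair passed a test.

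**Figure D3:**
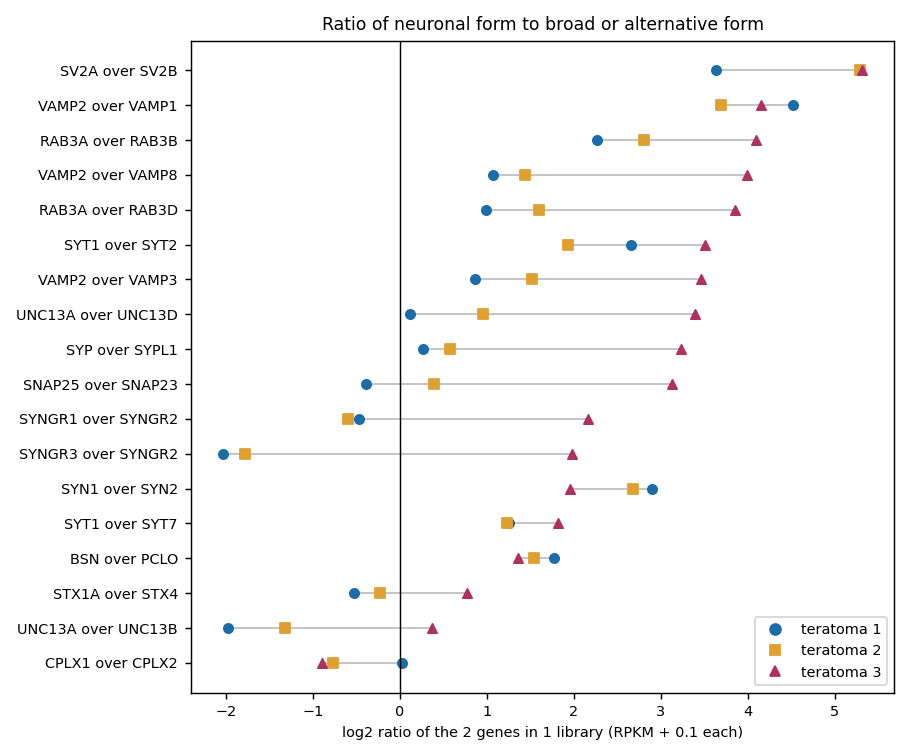
Log2 ratio of the first gene over the second gene of each of 18 pairs, with RPKM + 0.1 for each gene, in teratoma 1 (circle), teratoma 2 (square) and teratoma 3 (triangle). At 0 the genes are equal. The triangle is the rightmost point in 14 pairs, and the circle and square of SYNGR3 over SYNGR2 lie left of 0 while its triangle lies at 1.97.

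The mean log2 level of the 12 neuron markers, none of which is among the 91 genes, was 5.27, 5.77 and 7.19 in teratomas 1, 2 and 3, a range of 1.92. With that mean subtracted, 35 of the 38 genes with a large spread and their highest level in teratoma 3 varied by less than 1 between libraries. Of the 1173 genes selected in the same way from all genes, without the neuron markers, 91.2% did so too, so the count is close to that background. The median range was 0.42 for the 38 and 0.55 for the 1173. SV2A lay at -0.98, -0.99 and -1.02 relative to the neuron markers on the log2 scale, a range of 0.04. The range was 0.10 for SYT5, 0.17 for SYT1 and UNC13A, 0.19 for SYN1 and 0.23 for SYP. SNCB (1.90), SYN2 (1.14) and SYT16 (1.09) varied by more. The neuron-relative spread SYN2 showed was under 1 with its entries summed (0.93) or averaged (0.85), 0.79 without teratoma 1 and 0.35 without teratoma 3. The neuron-relative spread SYT16 showed was 0.089 without teratoma 1 and 0.998 without teratoma 2, and the neuron-relative spread SNCB showed was 0.77 without teratoma 3. SNCB lay at -4.15, -3.38 and -2.25, so it was closest to them in teratoma 3. After the subtraction 18 of the 38 genes were highest in teratoma 3 and 11 were lowest there, and the same count was not made for the 1173. The 21 genes that were lowest in teratoma 3 before the subtraction had to be lowest after it.

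**Figure D4:**
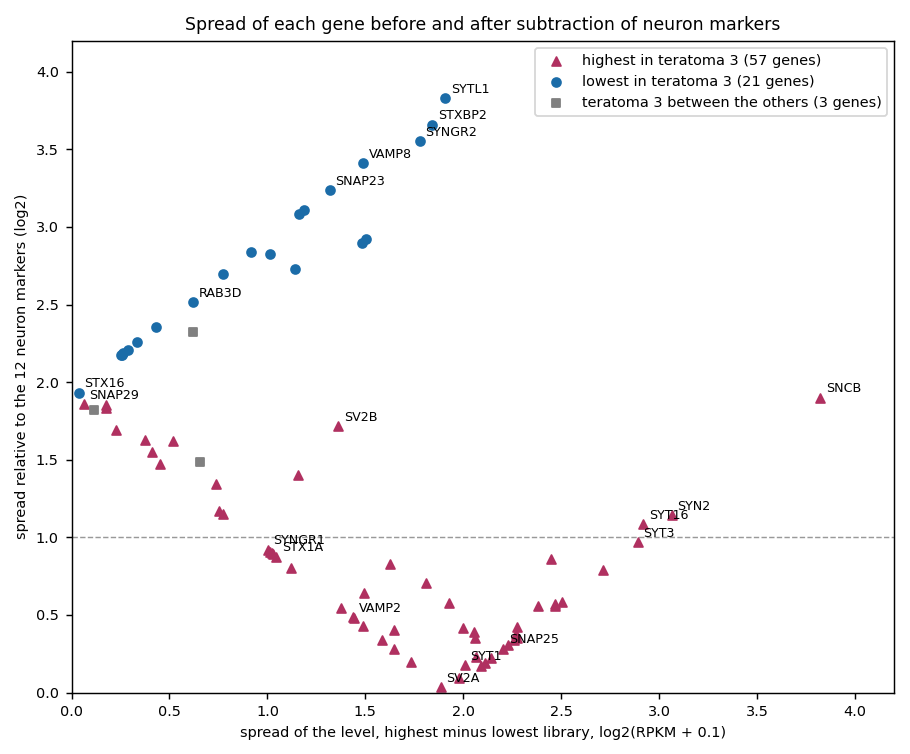
Spread of each of the 81 genes whose mean reached 1 RPKM, as the highest minus the lowest library on log2(RPKM + 0.1), on the x axis and the same after subtraction of the mean of the 12 neuron markers on the y axis, with a dashed line at 1. Of the genes highest in teratoma 3 (triangles), SV2A lies lowest at 0.04 and SNCB highest at 1.90, and SYTL1, STXBP2 and SYNGR2, lowest in teratoma 3 (circles), lie at 3.55 or more.

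Other genes of the vesicle cycle gave 35 detected genes of 40, and 19 had a large spread, each of them highest in teratoma 3. Of all genes 52.7% were detected, 12.1% had a large spread and 4.52% had one with teratoma 3 highest. The 40 genes were listed with earlier results of these data known, so the counts describe this list only. SLC32A1, which loads GABA and glycine, stood at 11.3, 16.3 and 38.9 RPKM, and SLC17A6, which loads glutamate, at 1.98, 3.20 and 11.0. SLC17A7, the glutamate transporter of mature cortex, was under 1 RPKM in each library (0.447 ± 0.121, SD, n = 3). Of the 7 vesicular transporters 3 were detected and 4 had a large spread. In endocytosis 15 of 16 were detected and 6 had a large spread: the neuronal dynamin DNM1 stood at 15.6, 18.8 and 37.6 RPKM while the ubiquitous DNM2 stood at 31.99, 29.4 and 20.5. SNARE complexes are taken apart by NSF, at 7.40, 11.0 and 21.4, with the adaptors NAPB, the brain form, at 7.88, 11.4 and 33.3, and NAPA, the ubiquitous form, at 34.4, 32.9 and 40.0. All 4 of these disassembly genes were detected, as were the 13 active zone and priming partners, 7 of which had a large spread, among them CADPS, of dense-core vesicle priming, at 6.35, 9.23 and 21.7.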

How the data were processed

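RNA-seq tables of H1 teratoma were used, 1 per library. Per the labels, the molecule was polyA RNA and the library kit NEBNext Ultra II. The submitters' processing notes name Bowtie2 and hg19. For the counting tool, the strand setting and any removal of mouse reads, the steps were not given in the sources used here, so overlapping or antisense genes cannot be told apart. The deposited RPKM values equal the deposited read count divided by transcript length and 1 total per library. The deposited counts are raw reads per transcript, and reads on shared exons count for several of the 59443 entries. Per gene symbol the entry with the highest mean RPKM was kept, which left 27307 genes. The members, lists, pairs and rules were chosen with earlier results of these data known, and 3 of the 91 are counted but not reported here by name or in pairs.

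Values were given per library for the 3 leading genes of each role, the genes of the pairs and those with a spread of 2 or more, and for further genes chosen after their values were seen. Alternatives covered detection, pseudocount, entries, scaling and each library left out. A level at the median length of 2500 bases rests on 116, 115 and 109 reads per RPKM, and 3 reads make 0.0259, 0.0262 and 0.0275 RPKM, which covers counting error only. Python 3.11.15, numpy 2.4.6, pandas 2.3.3, scipy 1.17.1 and matplotlib 3.10.9 were used.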

Additional observations from a re-analysis of the deposited data

How the results depend on the processing

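With detection at 5 RPKM 39 of the 91 genes and 22 of the 40 partners were detected, and 13 genes had a spread of at least 2. With 1 library left out, 1 to 43 genes had a large spread, the lowest count without teratoma 3. Rescaling to 1000000 per library raised the median detected gene by 1.64, 1.69 and 1.74 on the log2 scale in teratomas 1, 2 and 3. After it 57 genes had a large spread and 60 with a mean of at least 1 were highest in teratoma 3. The added 1 and the cut at a mean of 1 stayed the same while levels rose, so both counts could rise for genes in general. The matching shares of all genes were not computed. Summing entries turned the log2 ratio STX1A/STX4 to -0.51. The log2 ratio SYNGR1/SYNGR2 was 0.36 with the kept entries, 0.66 with entries summed and 0.076 with entries averaged. With 1 library left out, the log2 ratio STX1A/STX4 ranged from -0.38 to 0.27, the log2 ratio SYNGR1/SYNGR2 from -0.53 to 0.84, the log2 ratio SNAP25/SNAP23 from -0.0011 to 1.76 and the log2 ratio SYNGR3/SYNGR2 from -1.91 to 0.097. The cause was not tested. The other 157 recomputed ratios kept their sign, and the other counts recomputed stayed within 1.5 times their value. Counts that need teratoma 3 have no value without it. No paired analysis was possible because the libraries form 1 group.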
